A study of Mus musculus with 6 samples.

Results

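A set of 9 genes that mark microglia, the resident macrophages of brain tissue, were followed through single nuclei of mouse striatum: Cx3cr1, P2ry12, Tmem119, Csf1r, Siglech, C1qa, C1qb, C1qc and Trem2. They were chosen by name, and all were among the 24841 genes of the deposited table. The table held 48834 nuclei of 6 libraries, 3 from wild-type and 3 from Celsr3-heterozygous mice. Celsr3 encodes a large neuronal adhesion receptor with cadherin repeats. The labels give no age, sex, strain or type of Celsr3 allele, and call the libraries biological replicates. All 6 came from frozen dissected striatum, were made with 10x Genomics 3′ chemistry and shared a flowcell lane. The series title names tic-related behaviour and striatal dopamine as the study's subject.

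Microglia at rest are recognised by a group of surface receptors that sense their surroundings. Cx3cr1 binds the neuronal chemokine fractalkine, P2ry12 senses extracellular ADP and guides the processes of the cell toward damage, and Csf1r transmits the survival signals of CSF1 and IL-34. The 3 C1q chains assemble into the protein that starts the classical complement pathway, which tags material, synapses included, for uptake. Trem2 is a lipid-sensing receptor that signals through the adaptor Tyrobp. Macrophages at the borders and vessels of the brain share part of this set and are told apart by genes such as Mrc1 and F13a1.

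On GRCm38 (GENCODE vM21), the 3 complement genes are neighbours on the minus strand of chromosome 4. C1qb spans chr4:136880129-136886187, C1qc chr4:136889804-136893065 and C1qa chr4:136895917-136898803. P2ry12 (chr3:59216272-59262871, minus strand) lies inside Med12l, a Mediator subunit gene on the opposite strand (chr3:59005825-59318682). Cx3cr1 has an annotated span of 168 kb (chr9:119901616-120069879, minus strand) that overlaps 5 other protein-coding genes. Ttc21a and Wdr48 lie on the opposite strand, and Gorasp1, Csrnp1 and Xirp1 on the same strand as Cx3cr1. Csf1r overlaps 1 protein-coding gene on the opposite strand. Tmem119 (chr5:113793729-113800516), Siglech (chr7:55768178-55778925) and Trem2 (chr17:48346401-48354147) overlap no other annotated gene. Strand cannot separate the reads of genes that overlap on the same strand. Whether counting used strand is not given in the sources used here, so reads of an opposite-strand pair may not be told apart either.

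Promoter windows of a pair of members are shown because P2ry12 and C1qb stand for the receptor and the complement groups and both hold the letters AGGAAGT, a core that transcription factors of the ETS family such as PU.1 (Spi1), a regulator of the macrophage lineage, are known to bind. Each runs over the 250 bases before the RefSeq transcript start (GRCm38.p6), 5′ to 3′ on the minus strand, and capitals mark a match on either strand.
P2ry12, chr3:59262986-59263235: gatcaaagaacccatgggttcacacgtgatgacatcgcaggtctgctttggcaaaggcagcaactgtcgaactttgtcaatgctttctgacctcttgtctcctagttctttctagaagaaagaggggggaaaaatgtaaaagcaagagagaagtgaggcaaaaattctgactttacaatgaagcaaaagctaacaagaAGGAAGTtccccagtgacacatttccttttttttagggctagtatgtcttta
C1qb, chr4:136886201-136886450: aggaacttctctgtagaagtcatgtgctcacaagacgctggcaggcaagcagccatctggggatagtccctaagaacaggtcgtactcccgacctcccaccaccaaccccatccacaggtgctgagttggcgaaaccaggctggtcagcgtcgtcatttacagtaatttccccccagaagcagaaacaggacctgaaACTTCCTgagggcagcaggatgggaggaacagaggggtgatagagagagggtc
The match begins 52 bases before the start in P2ry12 and 53 bases before it in C1qb, where it reads on the other strand. The motif was searched on both strands as these 7 letters and as no other motif. It was found in 3 of the 6 members with a window in the RefSeq table (P2ry12, C1qb and C1qc), against 7.69% of all 32851 windows. A match describes the letters and shows no binding.

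Nuclei were classed by clustering without the 9 genes or the pathway lists used below, and clusters were named from other markers. Of 48013 nuclei kept after removal of probable doublets, 2229 were microglia-like. Replicates 1, 2 and 3, always given in that order, held 321, 388 and 433 of them (wild type) against 341, 375 and 371 (heterozygous). All 14 microglial markers fixed for the class, such as Selplg at 3.30 ± 0.345 (mean value per nucleus ± SD over 6 libraries), were detected in it, and the macrophage markers Mrc1 and F13a1 stood at 0.0590 and 0.00077. Only 52 nuclei were macrophage-like: 12, 6 and 7 (wild type) against 8, 5 and 14 (heterozygous). In these Mrc1 was at 15.7 ± 2.58 and F13a1 at 13.1 ± 3.28, while the microglial marker Olfml3 was at 0 in every library, alone among the 14. Of these 14 markers, 10 had a lower and 4 a higher mean in macrophage-like than in microglia-like nuclei. Selplg went from 3.30 to 0.103, and the leukocyte gene Ptprc stood at 1.41 in microglia-like and 1.85 in macrophage-like nuclei. A further cluster of 119 immune nuclei had all 14 microglial markers raised over non-immune nuclei. It did not meet the added conditions for naming an immune sub-cluster and is given apart.

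The deposited values are UMI counts already corrected for depth and rounded, so the depth before correction is unknown. A level below is the mean of these values per nucleus within a library. The original totals being lost, no counting interval is given, and the spread between libraries is the measure of error. Celsr3 itself went from 0.0942 ± 0.0175 in wild-type to 0.0651 ± 0.00400 in heterozygous libraries over all kept nuclei (mean ± SD of 3 libraries), a level 69.1% as high. Of all nuclei, 1.12% carried a barcode sequence that also occurs in another library.

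In microglia-like nuclei, the members were found in 50.1% of nuclei (Tmem119) to 95.6% (Cx3cr1), on average over the libraries. Cx3cr1 reached 7.38 ± 0.916, P2ry12 5.16 ± 0.684, Csf1r 5.26 ± 0.723 and Siglech, a sialic acid-binding lectin, 4.60 ± 0.405 (mean ± SD, n = 6 libraries). Tmem119, a membrane protein of little known function, stood at 1.16 ± 0.166. C1qa was at 4.28 ± 0.814, C1qb at 3.93 ± 1.17, C1qc at 2.54 ± 0.723 and Trem2 at 1.93 ± 0.469. These values are not per transcript length and are not ranked between genes. Between libraries, Siglech varied least relative to its mean, and C1qb and C1qc varied most.

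**Figure D1:**
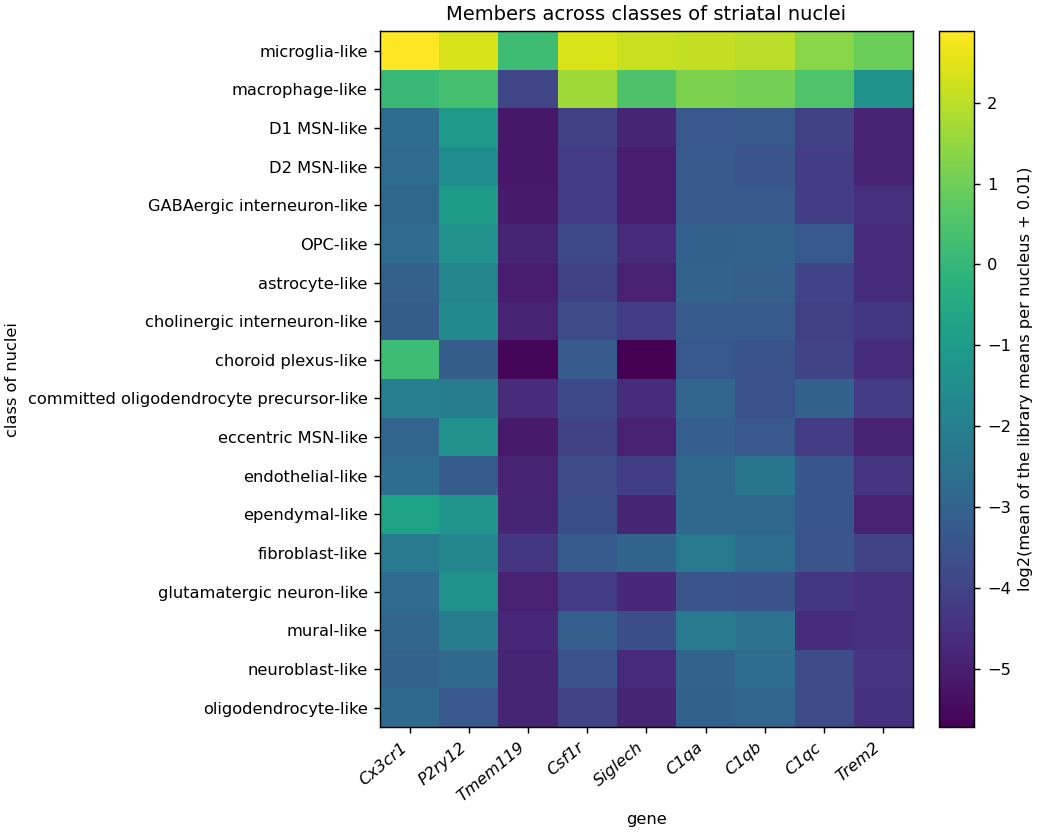
Colour gives log2(mean of the library means per nucleus + 0.01) for the 9 genes (columns) in 18 named classes of nuclei (rows). The microglia-like row is highest for every gene, the macrophage-like row is second for all but Cx3cr1, and outside them the P2ry12 column and the choroid plexus-like and ependymal-like cells of the Cx3cr1 column stand above the rest.

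Outside immune nuclei, 7 of the 9 genes had a low mean in all 16 other named classes. Non-immune clusters that got no name, the largest with 2380 nuclei before doublet removal, are not part of these classes. Csf1r lay between 0.0441 in GABAergic interneuron-like and 0.106 in mural-like nuclei, and microglia-like nuclei exceeded that highest class 49.5-fold. Tmem119 did not exceed 0.0394 ± 0.0512, Trem2 0.0544 ± 0.0792 and Siglech 0.119 ± 0.238 (SD, n = 6), each in fibroblast-like nuclei, and each was at 0 there in some library. The Siglech value rests on 1 library at 0.6, and its median over the 16 classes was 0.0264. Over these classes C1qa was found in 7.09% to 11.5% of nuclei (median 8.25%) and C1qb in 5.73% to 10.8% (median 8.27%), while C1qc had a wider relative range, from 2.10% to 8.01% (median 4.81%). Oligodendrocyte-like nuclei, whose median of 1814 genes per nucleus was close to the 1903 of microglia-like nuclei, had C1qa in 7.57% and C1qb in 8.56%. What part of these shares comes from free RNA was not tested, and they are not read as expression in neurons or oligodendrocytes.

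P2ry12 departed from this pattern, with 0.475 ± 0.0475 in GABAergic interneuron-like and 0.460 ± 0.0524 in D1 MSN-like nuclei (the medium spiny neurons with the D1 dopamine receptor), against 0.0865 ± 0.0236 in oligodendrocyte-like nuclei. It was found in 35.4% of D1 MSN-like nuclei, which had more genes per nucleus (median 3392). The order of its levels followed that of Med12l, the gene around it: 1.51 in GABAergic interneuron-like, 1.15 in D1 MSN-like and 0.165 in oligodendrocyte-like nuclei. Over the 16 classes the log2 levels of P2ry12 and Med12l had a Pearson r of 0.86 and a Spearman rho of 0.93. For Siglech and Med12l they were -0.25 and -0.42. The classes share libraries and their depths differ, so these values describe and test nothing. Choroid plexus-like nuclei left the pattern, with Med12l at 0.828 and P2ry12 close to its level in oligodendrocyte-like nuclei. Of the summed P2ry12 value in all kept nuclei, 44.3% lay in microglia-like nuclei, against 63.4% to 86.5% for the other members, with microglia-like nuclei making up 4.64% of the total.

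Among the named non-immune classes, Cx3cr1 was highest in 2 classes of ciliated or secretory epithelium. Choroid plexus-like nuclei, counted in the 3 libraries with at least 5 of them, had 1.27, 0.943 and 1.23 (wild-type replicates 1 and 2 and heterozygous replicate 3), with Cx3cr1 in 58.7% to 64.0% of nuclei. Csf1r was 0.0962, P2ry12 close to its lowest class level and Siglech 0.00896 there. In ependymal-like nuclei, Cx3cr1 averaged 0.588 ± 0.252 (SD, n = 6), on 10 to 45 nuclei per library, next to 0.413 ± 0.150 for P2ry12, 0.0699 ± 0.0570 for Csf1r and 0.0253 ± 0.0327 for Siglech. Ttc21a, a gene of cilia inside the annotated Cx3cr1 span, was at 0.438 in choroid plexus-like and 2.65 in ependymal-like nuclei, and at 0.000898 in microglia-like nuclei. Over the 16 non-immune classes the log2 levels of Cx3cr1 and Ttc21a had a Pearson r of 0.80 and a Spearman rho of -0.018. Of the 2 epithelial classes, the one with more Ttc21a had less Cx3cr1. The antisense gene 1700019L13Rik, which also overlaps Cx3cr1, had the other order, at 0.0969 in choroid plexus-like and 0 in ependymal-like nuclei. Whether the Cx3cr1 values come from Cx3cr1 transcripts or from overlapping ones was not tested.

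**Figure D2:**
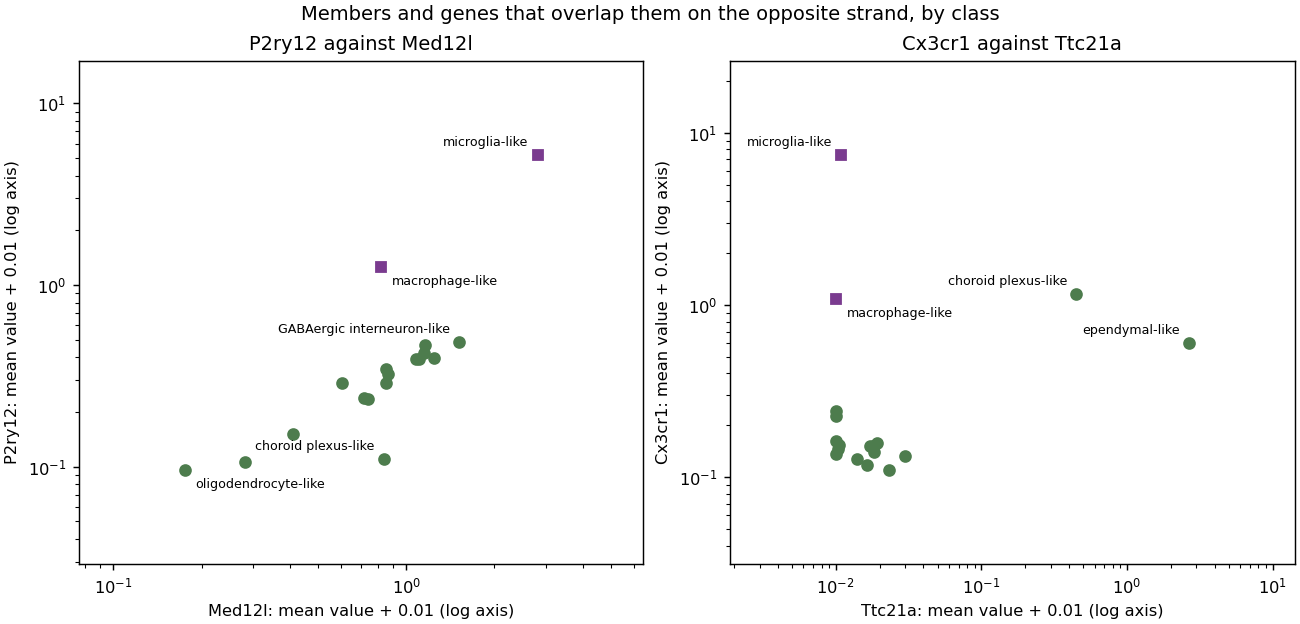
Each point is a class of nuclei, placed by the mean level of the overlapping gene (horizontal) and of the member (vertical), both plus 0.01 on log axes, with squares for the 2 immune classes. On the left, P2ry12 climbs with Med12l across non-immune classes, from 0.0865 in oligodendrocyte-like to 0.475 in GABAergic interneuron-like nuclei. On the right, choroid plexus-like and ependymal-like nuclei stand apart for both Cx3cr1 and Ttc21a.

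Itgam, the alpha chain of complement receptor 3, had the class profile most like the mean of the 9 members, with a Pearson r of 0.99 over 17 classes. It was followed by the lipopolysaccharide co-receptor Cd14, the lysosomal membrane protein Laptm5, the protease cathepsin S (Ctss) and the uncharacterised Gm35154 and Gm40645, each with an r of 0.98 or 0.99. Itgam stood at 1.72 in microglia-like nuclei, 0.619 in macrophage-like nuclei and at most 0.0289 in the other classes compared.

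Most microglia-like nuclei held most of the members. The median microglia-like nucleus had 7 to 8 of the 9 genes with a value above 0, depending on the library, and 71.8% ± 12.3 (SD, n = 6) had 7 or more. All 3 C1q genes were found in 36.0% to 67.5% of the microglia-like nuclei of a library (mean 56.0%) and none of them in 2.46% ± 1.83. In oligodendrocyte-like nuclei, all 3 were found in 0.189% ± 0.154 and none in 81.0% ± 2.49. These shares follow in part from how often each gene was found alone, and a dependence between the genes was not tested.

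Within the microglia-like class, 6 sub-clusters made without the members differed in the homeostatic receptors more than in the complement genes. P2ry12 ranged from 3.74 in sub-cluster 2 to 6.65 in sub-cluster 0, Cx3cr1 from 5.88 to 9.14 and Siglech from 3.12 to 5.96. C1qb ranged from 3.59 to 4.39 and Trem2 from 1.85 to 2.17, less than their spread between libraries. Sub-cluster 0 also had the most genes per nucleus (median 2070.5) and sub-cluster 2 the fewest (1791). Nuclei were also put in 3 equal groups by gene number within each library, and the group with the most genes had a mean ratio to that with the fewest of 1.57 for Siglech and 1.04 for Trem2. The part of gene number in the differences between sub-clusters was not tested.

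In macrophage-like nuclei every member had a lower mean than in microglia-like nuclei, by very different amounts. Tmem119 was at 0 in 4 of the 6 libraries and at 0.0833 and 0.25 in the others (wild-type replicate 1 and heterozygous replicate 1). Cx3cr1 had 0.917, 0.333 and 1.0 (wild type) and 0.375, 2.0 and 1.79 (heterozygous), far from the 6.24 to 8.34 in the microglia-like nuclei of these libraries. No library of either class came near the range of the other.

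Csf1r was kept best among the receptors. Its macrophage-like levels were 4.0, 1.17 and 3.71 (wild type) and 2.88, 4.2 and 2.79 (heterozygous), 59.3% of the microglia-like mean, and the highest of these values was still below the lowest microglia-like one of 4.39. P2ry12 averaged 1.25 ± 0.526 (24.2% of the microglia-like mean) and Siglech 1.37 ± 0.539 (29.8%). Trem2 averaged 0.396 ± 0.377 (20.5%) and was at 0 in heterozygous replicate 1. Groups did not overlap for any of these 4 genes. The share of all genes without such overlap was not counted, so this and the like statement for Cx3cr1 are descriptions only. Trem2 was seen mainly in microglia-like nuclei, so its lack of overlap is not read as a result.

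The complement genes were at 53.4% (C1qa), 53.6% (C1qb) and 55.4% (C1qc) of their microglia-like means, a little below the share for Csf1r, and unlike it their ranges in the 2 classes overlapped. The macrophage-like levels of C1qa were 1.75, 1.0 and 2.14 (wild type) and 4.38, 1.8 and 2.64 (heterozygous). Heterozygous replicate 1 was thus slightly above its own microglia-like nuclei (4.09), the only pair in that direction. C1qb averaged 2.10 ± 0.636 and C1qc 1.41 ± 0.753. These levels were far above those of the non-immune classes, where C1qa did not exceed 0.210.

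On the log2(value + 0.01) scale, macrophage-like minus microglia-like, the mean difference over the libraries was -3.07 ± 1.15 for Cx3cr1, -2.17 ± 0.85 for P2ry12, -1.83 ± 0.53 for Siglech and -0.85 ± 0.78 for Csf1r (SD, n = 6). It was -1.02 ± 0.83 for C1qa, -0.89 ± 0.45 for C1qb and -0.97 ± 0.58 for C1qc. No log2 difference is given for Tmem119 and Trem2, which had libraries at 0. Tmem119 and Trem2 had a mean under 0.5 in macrophage-like nuclei and are described without a test, since a gene seen mainly in 1 of the classes had to differ. Of the 7 members with a mean of at least 0.5 in both classes, 6 were lower in all 6 libraries, as were 9.56% of the 1882 such genes. Each of these 6 had an exact sign-flip permutation p of 0.03125 (two-sided), the smallest that 6 libraries allow, and C1qa had 0.0625. These exact permutation p-values were adjusted by the Benjamini-Hochberg method over the 2776 genes with a mean of at least 0.5 in either class. They became 0.144 and 0.211. With 603 genes at the smallest possible p, 0.144 was the lowest adjusted value that any gene could have. So no gene could pass 0.05 here, however large its difference. The classes were close in median genes per nucleus, with 1878.5 to 2071.5 in the macrophage-like and 1846 to 1968 in the microglia-like nuclei of the libraries. When no doublets were removed, which gave 92 macrophage-like nuclei, the difference for Cx3cr1 shrank to -1.57.

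**Figure D3:**
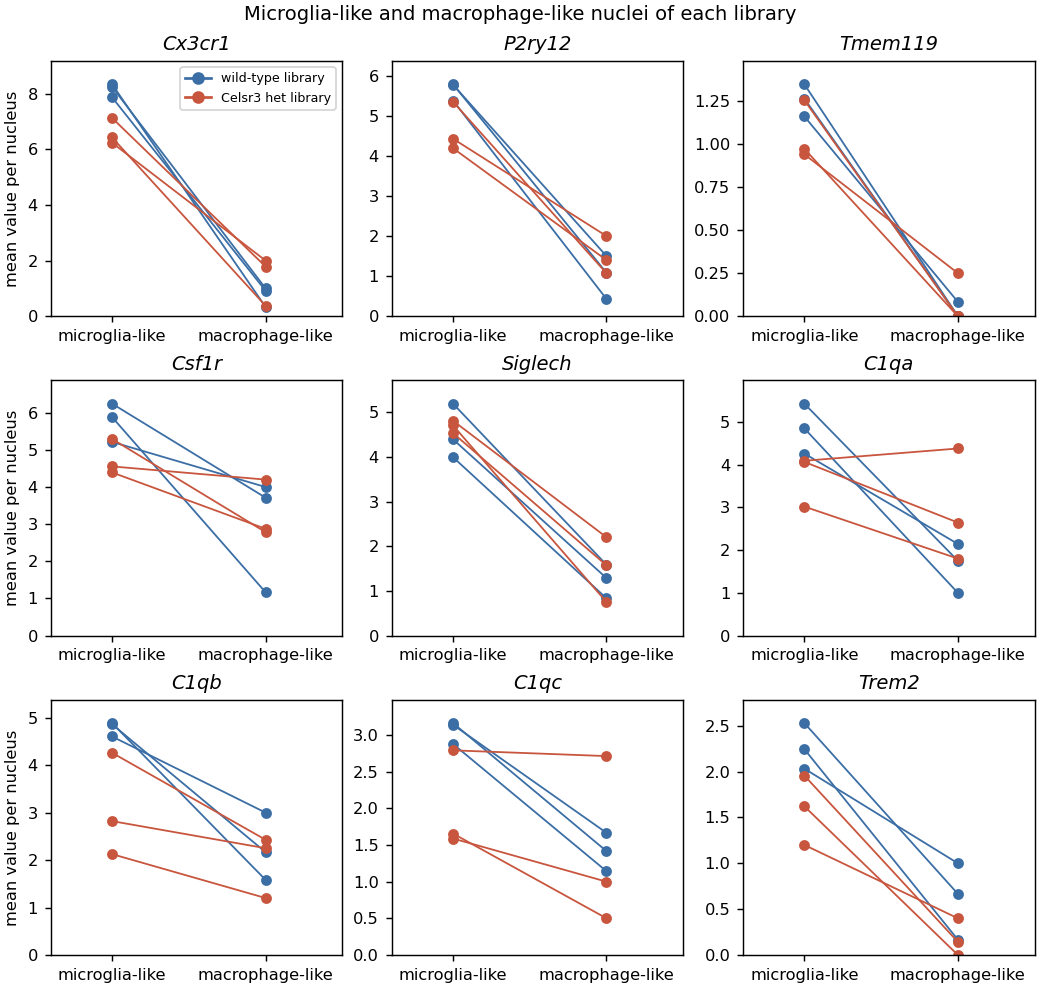
Each line joins the mean value per nucleus of microglia-like and macrophage-like nuclei of 1 library (blue wild type, red heterozygous), with 5 to 14 macrophage-like nuclei per library. Lines fall steeply for Cx3cr1, P2ry12, Tmem119, Siglech and Trem2, less so for Csf1r and the C1q genes, and the C1qa line of heterozygous replicate 1 climbs from 4.09 to 4.38.

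Genes that act with the members were compared between both immune classes in the same way. Among transcription factors, Mef2a and Mef2c stood at 10.9 ± 0.707 and 10.2 ± 0.411 in microglia-like and at 6.78 ± 2.12 and 10.3 ± 3.47 in macrophage-like nuclei. Runx1 and Maf had 2.46 ± 0.149 and 2.53 ± 0.199 in microglia-like and 6.46 ± 2.72 and 6.70 ± 1.50 in macrophage-like nuclei, where both were the higher in 6 of 6 libraries, as were 7.23% of the 1882 genes with a mean of at least 0.5 in both classes. Sall1, named after its values were seen, is a factor known to keep microglial identity and was at 1.11 ± 0.0480 in microglia-like nuclei and at 0 in the macrophage-like nuclei of every library. So the macrophage-like nuclei held P2ry12 and Siglech values while Sall1 and Olfml3 were at 0 there.

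Among ligands and purine-handling genes, Apoe, Sirpa, Entpd1 and Clu had the 4 highest mean values in microglia-like nuclei. The lipoprotein Apoe, a ligand of Trem2, was at 8.90 ± 0.822 in microglia-like and 66.3 ± 10.9 in macrophage-like nuclei. Sirpa, which receives the CD47 signal that restrains uptake, was at 4.01 ± 0.263 against 1.48 ± 0.782, and Entpd1, the surface enzyme that breaks down ATP and ADP, at 2.70 ± 0.174 against 1.37 ± 0.560. Clusterin (Clu), a lipoprotein chaperone, was at 0.920 ± 0.117 against 0.774 ± 0.347 and lower in 4 of 6 libraries. Csf1 and Il34, the ligands of Csf1r, and Cx3cl1, the ligand of Cx3cr1, were named after their values were seen. Il34 had its highest means in mural-like (1.61 ± 0.455) and fibroblast-like nuclei (1.45), Csf1 in fibroblast-like (0.399 ± 0.201) and oligodendrocyte-like nuclei (0.282), and Cx3cl1 in the MSN-like classes (0.879 ± 0.107 in D1 and 0.871 in D2). Within each gene the means of the 2 classes differed by less than the SD given.

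Comparing genotypes in microglia-like nuclei, 8 of the 9 members had a lower mean log2 level in the heterozygous libraries, as did 48.7% of all genes tested, and none passed the test across genes. Among the receptors, Cx3cr1 had 7.87, 8.34 and 8.25 (wild type) against 6.43, 6.24 and 7.13 (heterozygous), and the other members follow in this form. Every heterozygous library lay below every wild-type one. Its log2 difference, heterozygous minus wild type, was -0.31 (SE 0.08), with a limma adjusted p of 0.483. P2ry12 had 5.79, 5.78 and 5.39 against 4.43, 4.19 and 5.36, and the groups were apart only by the small step between 5.39 and 5.36. Csf1r had 5.21, 5.88 and 6.24 against 4.39, 4.55 and 5.29, with overlap. Tmem119 also overlapped, with 1.16, 1.27 and 1.35 against 0.941, 0.973 and 1.26. The log2 differences of these 3 genes were -0.29 (SE 0.10), -0.28 (SE 0.10) and -0.26 (SE 0.13), with limma adjusted p-values of 0.796, 0.796 and 0.898. Siglech showed no such difference: 5.19, 3.99 and 4.39 against 4.70, 4.81 and 4.53 (log2 difference 0.06, SE 0.10, limma adjusted p = 0.950).

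The complement genes and Trem2 differed more and varied more among heterozygous libraries. C1qb had 4.89, 4.86 and 4.61 (wild type) against 2.82, 2.13 and 4.26 (heterozygous). Heterozygous replicates 1 and 2 were low and replicate 3 lay just under the wild-type range. C1qc had the same shape, with 3.17, 3.14 and 2.88 against 1.66, 1.59 and 2.79. For C1qa the values were 5.42, 4.85 and 4.26 against 4.09, 3.02 and 4.06, and for Trem2 2.53, 2.24 and 2.03 against 1.62, 1.20 and 1.96. None of the 4 genes overlapped between genotypes. As a percentage of wild type, the mean level in heterozygotes came to 64.1% for C1qb, 65.7% for C1qc, 70.2% for Trem2 and 76.9% for C1qa.

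On the log2 scale these were differences of -0.70 (SE 0.18) for C1qb, -0.65 (SE 0.17) for C1qc, -0.53 (SE 0.15) for Trem2 and -0.39 (SE 0.13) for C1qa, with limma adjusted p-values of 0.483, 0.483, 0.574 and 0.762. Of 8011 genes tested, limma called 0 (0% called), and 423 had an unadjusted p under 0.05. Among the members, 7 were among the genes lower at that unadjusted level, which held 3.03% of all genes, and 6 among those whose heterozygous libraries all lay below the wild-type ones, which held 5.28%. The median log2 difference of the 9 members was -0.31 against 0.01 over all genes tested. The members were chosen with earlier results of these data known, so these counts are a description.

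**Figure D4:**
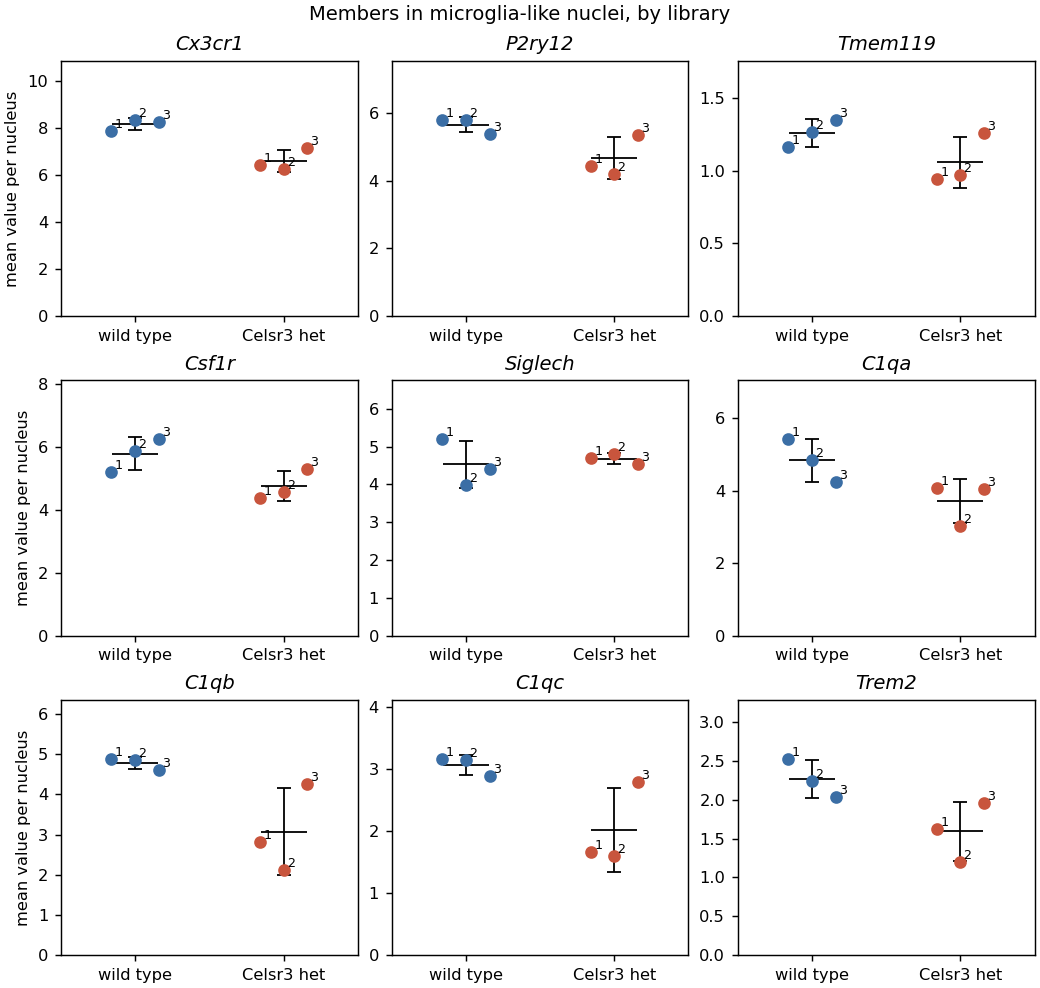
Points are the mean value per microglia-like nucleus in each library, numbered by replicate, and black lines give the group mean ± SD (n = 3 each). Heterozygous replicates 1 and 2 (red) lie low for C1qb, at 2.82 and 2.13, while replicate 3, at 4.26, lies next to the wild-type libraries (blue), and the Siglech groups overlap.

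Whether C1qb and C1qc were called depended on 1 library. Without heterozygous replicate 3, limma called 14 of 7966 genes (0.176%), all lower in the remaining heterozygous libraries. C1qb (log2 difference -0.96, adjusted p = 0.0066) and C1qc (-0.91, adjusted p = 0.0026) were the 2 members among them, and the others included the microglial marker Gpr34, the cathepsin Ctsd and the myelin genes Mbp and Mobp. Without heterozygous replicate 2, the log2 differences were -0.46 for C1qb, -0.34 for Trem2 and -0.24 for C1qa, each with a limma adjusted p of 0.999. Other properties of the same libraries differed as well. The summed level of the 14 microglial markers was 52.4 to 56.1 (wild type) against 45.3, 47.5 and 51.6 (heterozygous), and 10 of the 14 had a lower heterozygous mean. Median genes per microglia-like nucleus were 1902, 1918 and 1929 (wild type) against 1846, 1885 and 1968 (heterozygous). The summed level of 8 oligodendrocyte markers inside microglia-like nuclei was 25.3 to 26.6 (wild type) against 15.9, 20.3 and 34.6 (heterozygous). That of 76 ribosomal protein genes was 98.7, 66.6 and 66.8 against 62.5, 64.3 and 77.1, and that of 7 neuronal genes 19.5, 20.1 and 25.4 against 26.5, 25.5 and 23.2. Astrocyte markers summed to 17.9, 31.0 and 29.3 against 16.6, 17.1 and 19.8. Heterozygous replicates 1 and 2 were thus lowest for the oligodendrocyte, astrocyte and ribosomal sums and highest for the neuronal one. Wild-type replicate 1 was close to them for astrocyte markers (17.9), and wild-type replicate 3 for neuronal genes (25.4). A fit on nuclei matched for gene number between libraries gave log2 differences of -0.42 for C1qa and -0.25 for Cx3cr1, against -0.39 and -0.31 in the main fit. It called 0 genes. The part of the other properties in the result was not tested. Outside immune nuclei, 3 of the 9 members lay lower in every heterozygous library than in any wild-type one, as did 4.31% of 14284 genes, and the groups overlapped for 6. The 3 were C1qc (0.0632 ± 0.00258 against 0.0478 ± 0.00869), Cx3cr1 (0.149 ± 0.00324 against 0.130 ± 0.0103) and P2ry12 (0.332 ± 0.0121 against 0.285 ± 0.0209), given as wild type against heterozygous, mean ± SD of 3 libraries. Among the others, C1qb had 0.116 ± 0.0124 against 0.0899 ± 0.0270 and Trem2 0.0299 ± 0.00447 against 0.0285 ± 0.00471.

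Sub-cluster 1 held 43.7% and 47.5% of the microglia-like nuclei of heterozygous replicates 1 and 2, against 5.93% in heterozygous replicate 3 and 7.22% to 13.4% in the wild-type libraries. In each of the 6 sub-clusters the mean of the heterozygous libraries was below that of the wild-type ones for 8 of the 9 members, as for 3.37% of the 8011 genes tested, and for Siglech this was so in 1 of 6. Some of these means rest on few nuclei, such as 7 and 16 in sub-cluster 4 of heterozygous replicates 1 and 2. All 6 sub-clusters split the same libraries, so their shared direction is not independent of the whole-class difference and is a description. For C1qb in sub-cluster 0, for example, the means were 5.21 (wild type) and 3.57 (heterozygous). A fit with equal weight for each sub-cluster, chosen after seeing the data, gave log2 differences of -0.25 for Cx3cr1 and -0.35 for C1qa. The main fit had -0.31 and -0.39. For P2ry12 and Tmem119 the equal weights gave -0.31 and -0.32, against -0.29 and -0.26. The part of sub-cluster composition in the genotype difference was not tested further.

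**Figure D5:**
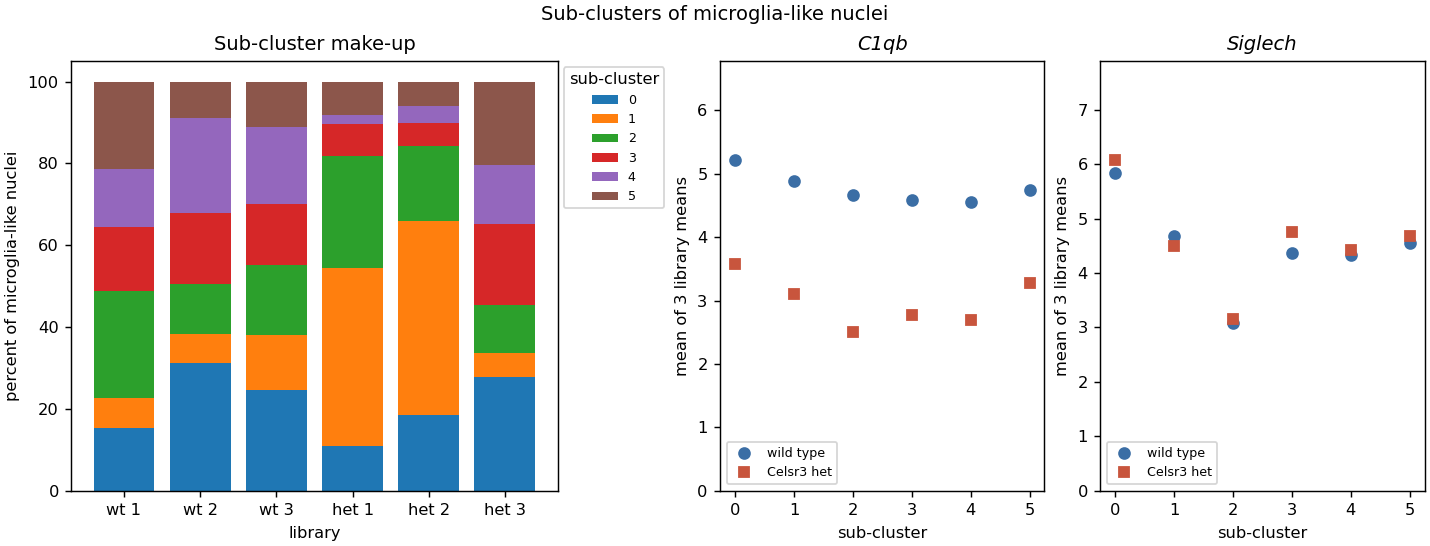
Left, stacked bars give the percent of each library's microglia-like nuclei in sub-clusters 0 to 5, and sub-cluster 1 is wide in heterozygous libraries 1 and 2 (43.7% and 47.5%). Middle and right, the mean of the 3 library means per genotype in each sub-cluster: C1qb is lower in the heterozygous mean in 6 of 6 sub-clusters and Siglech in 1 of 6.

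The unnamed cluster of 119 immune nuclei was also unevenly spread, with 57 nuclei in heterozygous replicate 1 and 5 to 18 in each of the other libraries. It had lower means than the microglia-like class for all 9 members, such as 4.01 ± 1.31 for Cx3cr1, 2.19 ± 0.399 for C1qa and 0.544 ± 0.289 for Tmem119 (SD, n = 6).

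Pathway genes in microglia-like nuclei are given by list, and the lists were not tested against each other or against the members. Of all genes tested, 48.7% were lower in the heterozygous mean. Of 12 tested partners of Trem2 and Csf1r, 0 passed the limma test, 6 were higher and 6 lower in the heterozygous mean, and the median log2 difference was -0.0028. The 4 most abundant were Grb2, Adam10, Cbl and Plcg2, with log2 differences of 0.11, -0.11, 0.06 and -0.04. Of 9 tested transcription factors 0 passed, with 5 higher and 4 lower. Of 6 tested other complement genes 0 passed and 5 were lower, among them Itgam, with 1.82 ± 0.220 (wild type) against 1.62 ± 0.420 (heterozygous; mean ± SD of 3 libraries). The synaptic Csmd1, a complement inhibitor, had 4.84 ± 0.449 against 5.55 ± 0.959. Its levels were far higher in OPC-like (42.1) and glutamatergic neuron-like nuclei (30.5). What part of its microglia-like value comes from other cells was not tested. Of 10 tested ligands and purine-handling genes 0 passed, with 4 higher and 6 lower. Among them Apoe stood at 9.09 ± 1.12 against 8.70 ± 0.562.

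The list of genes that are known to mark disease-associated microglia had 15 genes in the table, of which 7 passed the filter on low values. All of these 7 had lower heterozygous means, as did 48.7% of all genes tested, none passed the test, and the median log2 difference was -0.40. Ctsd, a lysosomal protease, had 4.47 ± 0.871 (wild type) against 3.01 ± 1.25 (heterozygous). Cd9 had 1.84 ± 0.289 against 1.40 ± 0.296, Ctsz 1.18 ± 0.0433 against 0.889 ± 0.163, and Ctsb, with the smallest log2 difference of the 7 (-0.21), 1.61 ± 0.159 against 1.39 ± 0.165.

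Over all kept nuclei, without any class, 9 of 9 members had a lower mean log2 level in the heterozygous libraries, as did 30.8% of all genes tested. C1qb had 0.326, 0.344 and 0.382 (wild type) against 0.220, 0.166 and 0.300 (heterozygous), and Cx3cr1 0.490, 0.561 and 0.595 against 0.428, 0.427 and 0.434. The log2 differences ran from -0.63 for C1qb to -0.02 for Siglech, with limma adjusted p-values from 0.450 to 0.929. Of 14399 genes, limma called 0 (0% called), and 1426 had an unadjusted p under 0.05, of which 63.1% were higher in the heterozygous libraries (27.3% when size factors scaled the libraries). Among the members, 6 were lower at that unadjusted level, as were 3.65% of all genes. For 6 members the groups were apart with the heterozygous libraries lower, as for 4.44% of all genes. In such sums, fewer cells of a type and less RNA per cell cannot be told apart.

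The share of microglia-like nuclei was 4.88% ± 0.614 (wild type) against 4.41% ± 0.153 (heterozygous; mean ± SD of 3 libraries), and the groups were not told apart (exact permutation p = 0.4, two-sided, smallest possible 0.1). Macrophage-like nuclei made up 0.108% ± 0.0437 against 0.108% ± 0.0501 (exact permutation p = 1.0, two-sided). In the macrophage-like nuclei themselves, 25 wild-type and 27 heterozygous, the genotype ranges overlapped for all 9 members. The heterozygous mean was the lower for C1qb, C1qc and Trem2 and the higher for the other members. C1qb averaged 2.25 ± 0.712 (wild type) and 1.96 ± 0.664 (heterozygous), and C1qa 1.63 ± 0.581 and 2.94 ± 1.31 (SD, n = 3 each). No test was made there, because no library reached 20 such nuclei.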

How the data were processed

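Single-nucleus RNA sequencing was analysed from 1 table deposited by the authors. Cell Ranger and Seurat 4.1 and the builds mm10 and GRCm38 are named in the submitters' processing notes; filters, annotation and the correction used are not given in the sources used here. The deposited values are handled here as a score, that is, UMI numbers that had been adjusted for depth and rounded. Totals per nucleus had a coefficient of variation of 10.7% while genes per nucleus ran from 1284 to 5263. In 10.0% of nuclei, at least 10 of the 13152 genes with a mean under 0.05 stood above 1 but at most 3, and none at 1. Because of this unit, tests for counts were not used.

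The members, lists and tests were chosen with earlier results of these data known. Doublets were scored with Scrublet in scanpy 1.11.5, whose automatic limit called only 0.127% to 0.811% of nuclei. Nuclei with a score over 0.25, except macrophage-like ones, and clusters with over 40% of such nuclei were therefore left out (821 nuclei, 1.68%). Clusters came from 2000 variable genes without the members and lists, 30 principal components, 15 neighbours and Leiden resolution 1.0, with a second clustering of immune nuclei on 20 components. A name needed at least 3 markers over 2-fold and a mean over 0.1, plus 50% of the markers or 1 in the top 10 genes. No other marker list could do as well. Immune sub-clusters were named against the other immune nuclei. Where that gave no name, microglia-like was used under 2 conditions. Most nuclei had to come from a first cluster of that name, and the rule had to hold against non-immune nuclei. These limits and the second clustering were set after clusters were seen and before any genotype fit.

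Library means were transformed as log2(mean + 0.01), which understates changes of low genes, and tested with limma 3.58.1 (R 4.3.3; trended empirical Bayes) where the mean was at least 0.02 and the summed value at least 30 per library, with Benjamini-Hochberg adjustment over all genes and a call at adjusted p under 0.05. The code was tested on simulated data. The planned fits of macrophage-like nuclei needed 20 nuclei per library and were not run; an exact sign-flip permutation test over 6 libraries, chosen after seeing the data, replaced the comparison of classes. Named genes were all members, up to 4 genes per list with the highest microglia-like mean, the 6 most alike profiles and markers. Promoter windows are RefSeq's.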

Additional observations from a re-analysis of the deposited data

How the results depend on the processing

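The direction of the genotype difference in microglia-like nuclei held under all 17 alternatives for 8 members. Not all of these could reverse it. For the 6 members with groups apart, leaving out 1 library cannot, and the replicate block and the lack of a filter leave the log2 difference as it was. Siglech, at 0.06, ranged from -0.029 (without wild-type replicate 2) to 0.16 with 1 library left out. In all kept nuclei the direction held under all 12 alternatives for the same 8, with the same limits. Siglech there ranged from -0.0999 to 0.045 with 1 library left out, turning to 0.042 without wild-type replicate 3 and to 0.045 without heterozygous replicate 3. Equal weights for sub-clusters and inclusion of the unnamed cluster, both chosen after seeing the data, called 0 genes. In microglia-like nuclei the number of genes called was 0 in the main fit and 1 (Rpl29, a ribosomal protein gene) without a filter. With 1 library left out it ranged from 0 to 14, and it was 4 without wild-type replicate 1 (Prkd1, Slc1a3, Mid1 and Lrmda, none of them a member). In all kept nuclei it stayed at 0 throughout, while size factors changed how many of the genes at an unadjusted p below 0.05 were higher in heterozygotes, from 63.1% of them to 27.3%. The share of microglia-like nuclei differed by -0.468 percentage points, with a range of -0.800 to -0.194 when 1 library was left out and -0.0985 when all variable genes, members included, entered the clustering. For macrophage-like nuclei that range was -0.0254 to 0.0259 around 0.000824, so no direction was held; the cause was not tested. Replicate numbers were not used as pairs in the main fit. In microglia-like nuclei the deviations of same-numbered libraries correlated at 0.0866, 0.0278 and 0.0748. Those of differently numbered libraries correlated at -0.0957 to 0.0361. Whether the numbers mark pairs was not tested. With the replicate block limma called 0 genes in microglia-like and 0 in all kept nuclei, and C1qb had an adjusted p of 0.329 in the former. All 9 members stayed lower in macrophage-like nuclei in each of 12 alternatives, but not all of these could reverse the direction. For members lower in all 6 libraries, leaving out 1 library cannot. Tmem119 and Trem2, seen mainly in microglia-like nuclei, had to differ. The planned fits across genes with at least 20 such macrophage-like nuclei, and their block and filter alternatives, were not run. Macrophage-like levels rest on 5 to 14 nuclei per library.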

Other observations

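Further genes had higher means in the 52 macrophage-like nuclei, and all were named after their values were seen. No gene could pass the test across genes with 6 libraries, and a gene seen mainly in 1 of the classes had to differ. Lyz2 (lysozyme) was at 1.57 ± 0.613 against 0.0415 ± 0.0136 in microglia-like nuclei, Igf1 (a growth factor) at 1.55 ± 0.819 against 0.0221 ± 0.0153, and the complement component C4b at 0.550 ± 0.269 against 0.00958 ± 0.00360 (SD, n = 6 libraries). The ATP-gated channel P2rx7 was at 6.36 ± 5.11 against 0.744 ± 0.0398, with a wide spread between libraries. Fcrls, on the microglial marker list, stood at 1.33 ± 0.298 in macrophage-like and 1.27 ± 0.462 in microglia-like nuclei.

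Med12l also surrounds P2ry13 and P2ry14, other nucleotide receptors on the minus strand. P2ry14 was at 1.70 in GABAergic interneuron-like and 1.42 in D1 MSN-like nuclei, where Med12l was at 1.51 and 1.15. It was at 0.0510 in microglia-like nuclei, where Med12l was highest at 2.80. The highest P2ry14 level was 1.83 in mural-like nuclei, with Med12l at 0.727. Ependymal-like nuclei had P2ry14 at 0.478 and Med12l at 1.14. P2ry13 was at 0.876 in microglia-like and 0.0143 in D1 MSN-like nuclei. The 3 receptors inside this gene thus had different levels relative to it in microglia-like and in neuronal classes.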
